A study of Mus musculus with 9 samples.

Results

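MHC class II antigen presentation was described through 10 genes, H2-Aa, H2-Ab1, H2-Eb1, H2-DMa, H2-DMb1, H2-Oa, H2-Ob, Cd74, Ciita and Ctss. The platform annotation assigned 20 of the 45037 probe sets tested to these genes, and all 20 are included. Of these, 17 were annotated to 1 gene, so that 9 of the 10 genes had a probe set of their own among 18193 genes measured. H2-DMb1 was read only by 2 probe sets that it shares with its near copy H2-DMb2, and 1 of the 2 probe sets of H2-Ob is shared with the predicted gene Gm20506. Levels at these 3 probe sets cannot be assigned to 1 gene.

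The arrays came from liver of KKAy mice, an obese strain that develops type 2 diabetes and carries the yellow allele of agouti. There were 9 one-colour Affymetrix arrays in 3 groups of 3, all from mice 8 weeks old on a chow with 34% fat. The BI mice received 100 µL injections into the peritoneal cavity with insulin at 40 µg/mL of which 11% was biomineralized. The Insulin mice received plain insulin at the same total concentration and volume. The untreated KKAy mice have "none" as their treatment label, while control mice given culture medium (DMEM) appear in the protocol, and whether both describe the same animals is not stated. A non-diabetic strain is not among the 3 groups. Neither single animals nor pools are named as the source of an array, so the p-values speak for the spread between these arrays, and that spread may be technical. BI replicate 2 has a growth protocol written for rats and was left in the BI group.

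Values are the authors' log2 signals, and a difference of 1 is a doubling. Array medians lay between 6.11 and 6.30, and the correlation over all probe sets was 0.911 to 0.920 between arrays of the same group and 0.909 to 0.921 between arrays of other groups. Hepatocyte markers were abundant on every array, with albumin (Alb) at 15.15 to 15.45. Markers of cells that carry MHC class II were present too, with the Kupffer cell lectin Clec4f at 9.99 to 10.92. These are bulk samples, in which fewer cells of a type and less RNA per cell cannot be told apart. RNA quality was read from Gapdh, whose 3' probe set minus its 5' probe set was 0.39, 0.26 and 0.42 on the BI arrays, 0.55, 0.54 and 0.48 on the Insulin arrays and 0.28, 0.31 and 0.65 on the untreated arrays, and the part of this in the results was not tested.

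MHC class II molecules are surface receptors that show peptides from engulfed proteins to CD4+ T cells. An alpha and a beta chain (H2-Aa with H2-Ab1, and an E alpha chain with H2-Eb1) are assembled with the invariant chain Cd74, which blocks the groove until the protease cathepsin S (Ctss) trims it. H2-DM then exchanges the remaining fragment for peptide, H2-O restrains H2-DM, and the coactivator Ciita switches the set on at promoters that share an X box and a Y box. In liver these molecules are found on dendritic cells, B cells, Kupffer cells and sinusoidal endothelium, while resting hepatocytes carry little.

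Promoters of 7 of the 10 genes were matched by symbol in the RefSeq table (H2-Aa, H2-Eb1, H2-DMa, H2-DMb1, H2-Oa, H2-Ob and Ctss). Windows of those with a Y box are shown because shared X and Y boxes are the known route by which Ciita reaches class II promoters. The 250 bases before each start in that table were searched on both strands for TGATTGG, the core of the Y box that NF-Y binds, and for CTNGNAAC, the left part of the X box, and these letters were chosen with the promoters in view. The windows run 5′ to 3′ on the gene's strand, the capitals mark a match to either motif, and each window lies upstream of the annotated start of its gene.
H2-Aa, chr17:34287855-34287918, minus strand: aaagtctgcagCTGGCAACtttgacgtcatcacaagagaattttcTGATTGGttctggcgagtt
H2-Eb1, chr17:34305761-34305824, plus strand: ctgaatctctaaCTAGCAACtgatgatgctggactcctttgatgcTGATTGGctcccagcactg
H2-DMb1, chr17:34153083-34153146, plus strand: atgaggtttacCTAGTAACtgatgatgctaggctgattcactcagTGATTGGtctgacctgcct
H2-Oa, chr17:34092289-34092352, plus strand: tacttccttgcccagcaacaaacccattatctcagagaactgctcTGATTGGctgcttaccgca
H2-Ob, chr17:34238801-34238864, plus strand: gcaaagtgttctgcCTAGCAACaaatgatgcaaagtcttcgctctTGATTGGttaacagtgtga

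TGATTGG was found before 5 of the 7 genes (H2-Aa, H2-Eb1, H2-DMb1, H2-Oa and H2-Ob), against 7.23% of 32851 promoters in the table. Its first base lay 50, 61, 63, 45 and 59 bases before the gene start in H2-Aa, H2-Eb1, H2-DMb1, H2-Oa and H2-Ob. CTNGNAAC was found before 4 of the 7 (H2-Aa, H2-Eb1, H2-DMb1 and H2-Ob), against 10.9% of promoters, with 23 to 26 bases between the motifs. Both motifs stood together in 0.819% of all promoters. Ctss held neither run of letters in this stretch. The table lists 2 starts for H2-DMa, both inside the annotated span of the gene, and the stretches before them held neither. The stretch before the outer end of that span was not searched.

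The genes lie on 4 chromosomes of the mouse genome (RefSeq annotation, build GRCm38.p6). H2-Oa (34092379 to 34095234), H2-DMa (34119693 to 34139101), H2-DMb1 (34153191 to 34160229), H2-Ob (34238905 to 34245908), H2-Ab1 (34263227 to 34269418), H2-Aa (34282744 to 34287823) and H2-Eb1 (34305867 to 34316674) are neighbours on chromosome 17. Ciita is on chromosome 16 (10480014 to 10531064), Ctss on chromosome 3 (95526786 to 95556405) and Cd74 on chromosome 18 (60803849 to 60812652).

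The question of the first comparison is what plain insulin did to these genes. Most of the abundant ones had higher means in the Insulin livers, by 0.43 to 0.81 on the log2 scale, and none passed the test. Insulin replicate 3 stood highest of the 9 arrays for most of them. Over the 9 genes with a probe set of their own, 8 had a higher mean with a median difference of 0.45, while over all 18193 genes 53.7% were higher with a median of 0.02.

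H2-Aa, the alpha chain of the A molecule, had signals of 11.02, 10.96 and 11.81 on the Insulin arrays, against 10.47, 10.41 and 10.54 on the untreated arrays, at its brightest probe set (1435290_x_at). All 3 Insulin arrays lay above all 3 untreated arrays, and the untreated arrays lay close together. The means were 11.26 ± 0.47 in Insulin livers and 10.47 ± 0.07 in untreated livers (SD, n = 3 each), a difference of 0.79 ± 0.26 (SE) with a 95% interval from 0.17 to 1.40, or 1.73-fold. Its limma p was 0.0189 before adjustment and 1.00 after Benjamini-Hochberg adjustment over 45037 probe sets. The other 3 probe sets of H2-Aa had differences of 0.80 ± 0.41 (1438858_x_at), 0.38 ± 0.30 (1452431_s_at) and 0.90 ± 0.45 (1443783_x_at), each with overlapping groups.

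H2-Ab1, the beta partner of H2-Aa, had signals of 8.65, 8.34 and 9.34 on the Insulin arrays and 8.24, 8.54 and 7.98 on the untreated arrays (1450648_s_at). The groups overlapped, since untreated replicate 2 lay above Insulin replicate 2. The difference was 0.52 ± 0.28, with a 95% interval from -0.14 to 1.18. Its other probe sets differed by 0.64 ± 0.37 (1451721_a_at) and 1.03 ± 0.51 (1425477_x_at). H2-Eb1, the beta chain of the E molecule, had signals of 9.37, 9.03 and 9.86 on the Insulin arrays and 8.79, 9.06 and 9.07 on the untreated arrays (1417025_at). Insulin replicate 2 lay inside the untreated range. The difference was 0.45 ± 0.25, with a 95% interval from -0.13 to 1.03.

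Cd74, the invariant chain, had signals of 8.08, 8.28 and 8.68 on the Insulin arrays and 7.85, 8.03 and 7.82 on the untreated arrays (1425519_a_at). The groups did not overlap, although the lowest Insulin array and the highest untreated array were close. The difference was 0.45 ± 0.22, with a 95% interval from -0.08 to 0.97 and an unadjusted limma p of 0.0834. Ctss, the protease that trims Cd74, had signals of 12.19, 12.64 and 12.62 on the Insulin arrays and 11.41, 12.61 and 12.13 on the untreated arrays (1448591_at). Untreated replicate 1 was the lowest of the 9 arrays, and the groups overlapped. The difference of 0.43 ± 0.37 was 0.11 without untreated replicate 1.

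**Figure D1:**
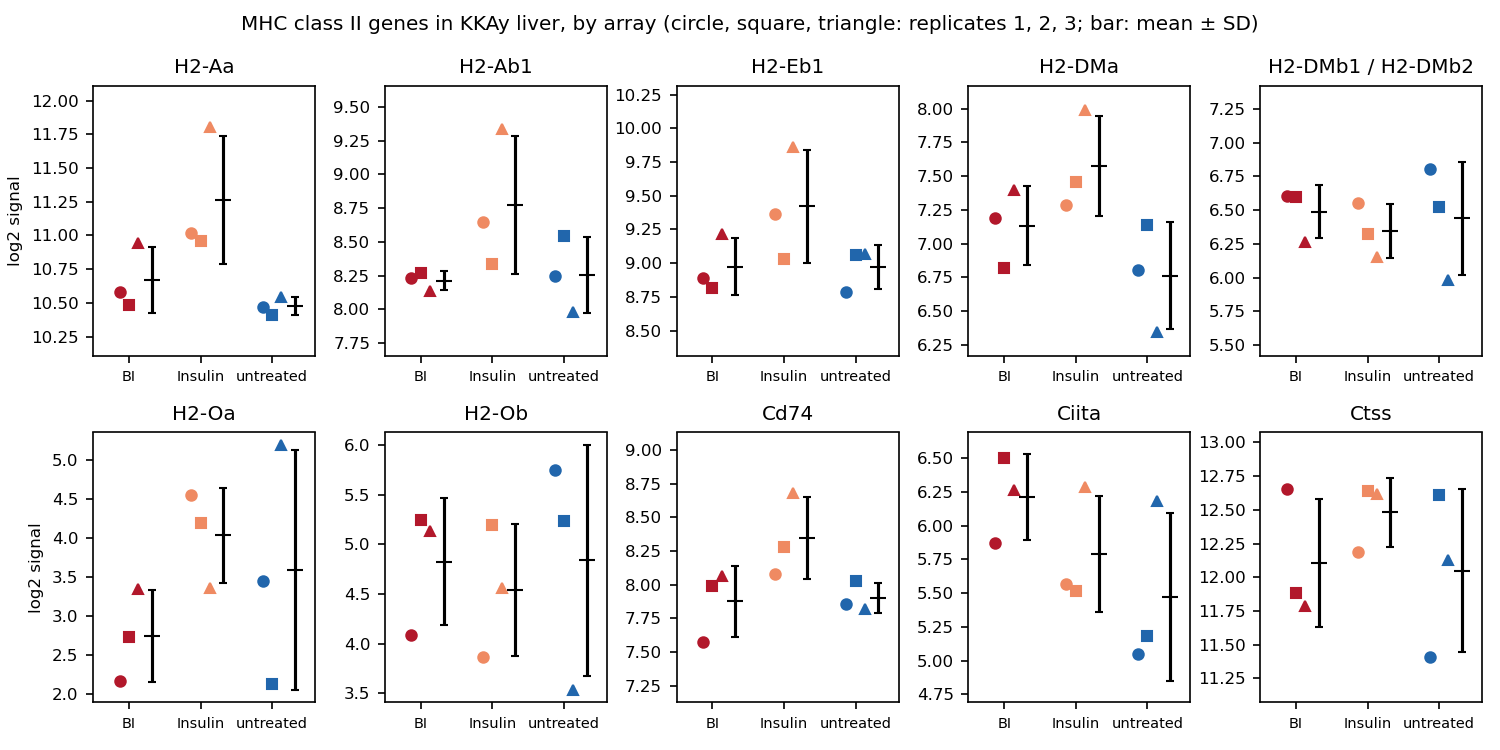
Log2 signal (vertical axes, each with its own range) of the brightest probe set of each of the 10 genes on each array, with BI, Insulin and untreated KKAy livers side by side and the mean ± SD beside the points. H2-Aa, H2-DMa and Cd74 have all 3 Insulin arrays above all 3 untreated arrays, and the triangle of Insulin replicate 3 is the top point for H2-Aa, H2-Ab1, H2-Eb1, H2-DMa and Cd74.

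H2-DMa, a chain of the peptide exchange factor, gave opposite pictures at its 2 probe sets. At the brighter (1422527_at) the signals were 7.28, 7.45 and 7.99 on the Insulin arrays and 6.81, 7.14 and 6.34 on the untreated arrays. The groups did not overlap, and the difference was 0.81 ± 0.29 with a 95% interval from 0.13 to 1.50. The limma p was 0.0257 before adjustment and 1.00 after it. At the dimmer (1459872_x_at) the signals were 5.49, 5.88 and 2.15 on the Insulin arrays and 5.98, 5.74 and 7.42 on the untreated arrays, a difference of -1.87 ± 0.96. The array with the highest reading at the brighter probe set, Insulin replicate 3, had the lowest reading at the dimmer one.

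The partner of H2-DMa could be read only together with H2-DMb2. The brighter shared probe set (1449580_s_at) had signals of 6.55, 6.32 and 6.15 on the Insulin arrays and 6.80, 6.52 and 5.99 on the untreated arrays, and the difference was -0.10 ± 0.25. The other shared probe set (1418638_at) differed by 0.47 ± 0.34. The groups overlapped at both.

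The chains of H2-O, the restraint on H2-DM that is best known from B cells, were near the dim end of the array and varied widely. H2-Oa had signals of 4.55, 4.18 and 3.35 on the Insulin arrays and 3.44, 2.12 and 5.19 on the untreated arrays (1419297_at), a difference of 0.45 ± 0.75. H2-Ob had signals of 3.87, 5.20 and 4.56 on the Insulin arrays and 5.75, 5.24 and 3.53 on the untreated arrays (1440837_at), a difference of -0.30 ± 0.64. The probe set that H2-Ob shares with Gm20506 (1422201_at) differed by 0.19 ± 0.98. All 3 lay below the median signal of every array, where the interval for a difference spans more than a doubling either way.

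Ciita, the coactivator of the set, had signals of 5.57, 5.52 and 6.28 on the Insulin arrays and 5.05, 5.18 and 6.18 on the untreated arrays (1421210_at). Replicate 3 was the highest array in both groups, and the groups overlapped. The difference was 0.32 ± 0.37, and 0.07 without Insulin replicate 3. The other Ciita probe sets differed by 0.75 ± 0.85 (1421211_a_at) and -0.56 ± 1.01 (1447075_at).

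With limma, 0 of 20 probe sets passed an adjusted p of 0.05 in this comparison, as did 0% of all 45037. At an unadjusted p under 0.05 there were 2 of 20, against 4.47% of all probe sets. All 3 Insulin arrays lay above all 3 untreated arrays at 3 of 20, against 5.33% of all, and below them at 0 of 20, against 3.86%. A mean higher by more than 0.5 was seen at 8 of 20 probe sets, against 17.6% of all, and at 6 of the 11 at or above the median level, against 4.55% of all such probe sets. The 8 belong to H2-Aa, H2-Ab1, H2-DMa and Ciita, and the 6 to H2-Aa, H2-Ab1 and H2-DMa. H2-Aa and H2-Ab1 thus enter with several probe sets each, which are not separate genes. The cut of 0.5 lies between H2-Ab1 (0.52) and H2-Eb1 and Cd74 (0.45 each).

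**Figure D2:**
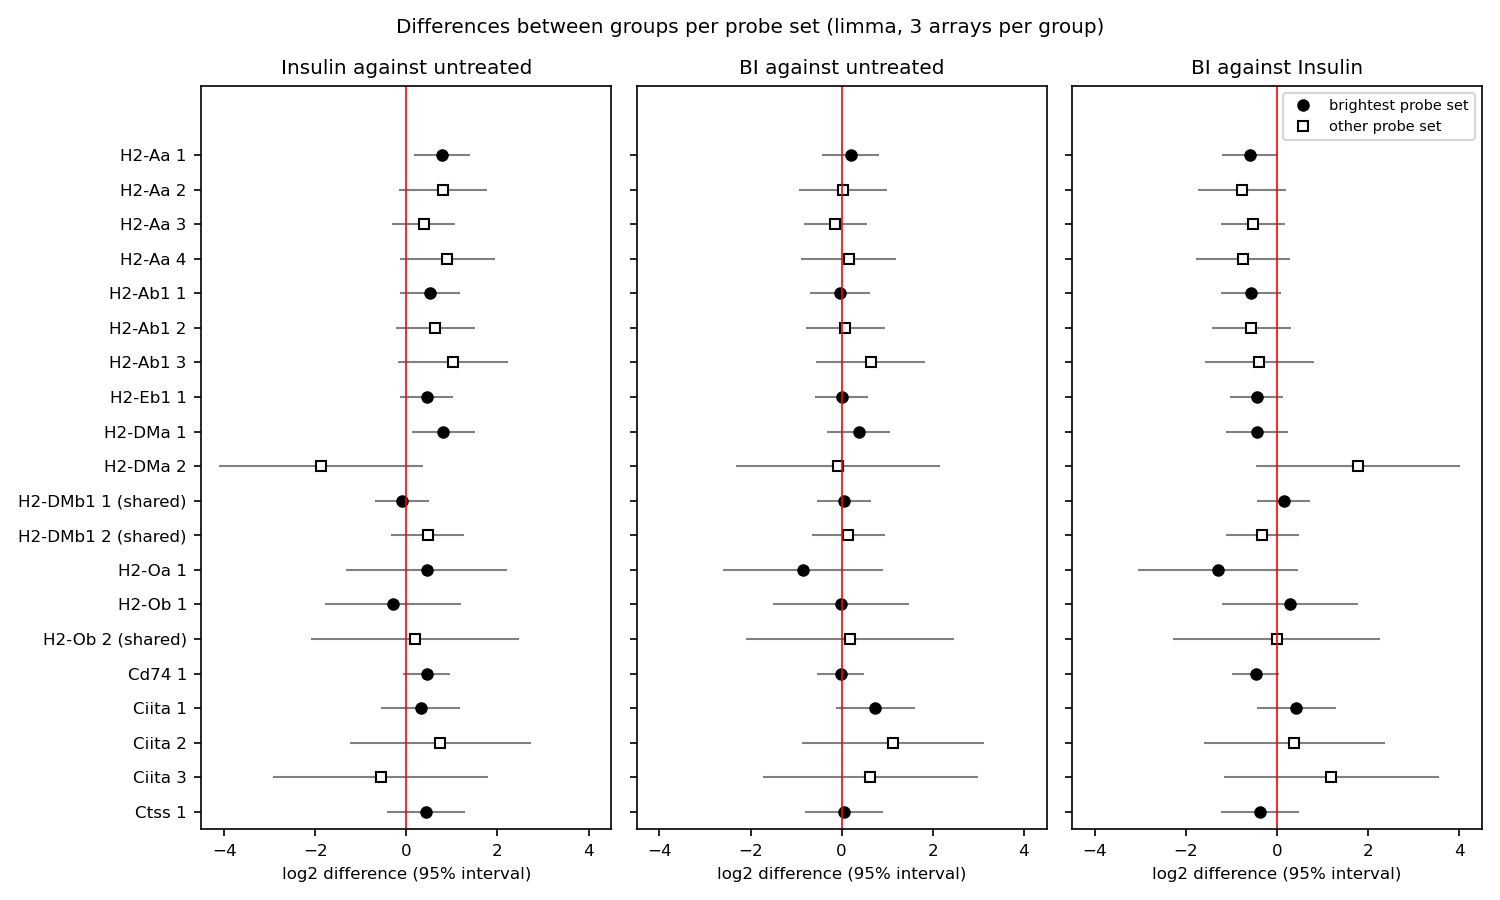
Log2 difference and 95% interval from limma (horizontal axes) for the 20 probe sets in 3 panels, Insulin against untreated, BI against untreated and BI against Insulin, with filled circles for the brightest probe set of a gene and open squares for its others. In the first panel only the brightest probe sets of H2-Aa and H2-DMa have an interval that leaves out 0, and in the other panels every interval holds 0.

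One array carried much of this pattern. Insulin replicate 3 was the highest of the 9 arrays at 11 of the 20 probe sets, against 12.6% of all probe sets, and at 9 of the 11 at or above the median level, against 11.3% of all such probe sets. These counts were made after the values were seen, and H2-Aa and H2-Ab1 enter them with several probe sets each. Without that array the difference of Insulin from untreated livers was 0.51 for H2-Aa, 0.24 for H2-Ab1, 0.23 for H2-Eb1, 0.28 for Cd74 and 0.61 for H2-DMa, and the median over the 9 genes was 0.28. Each of these stayed above 0 whichever Insulin or untreated array was left out, and H2-Aa ranged from 0.51 to 0.94. Leaving out a BI array cannot change this difference.

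**Figure D3:**
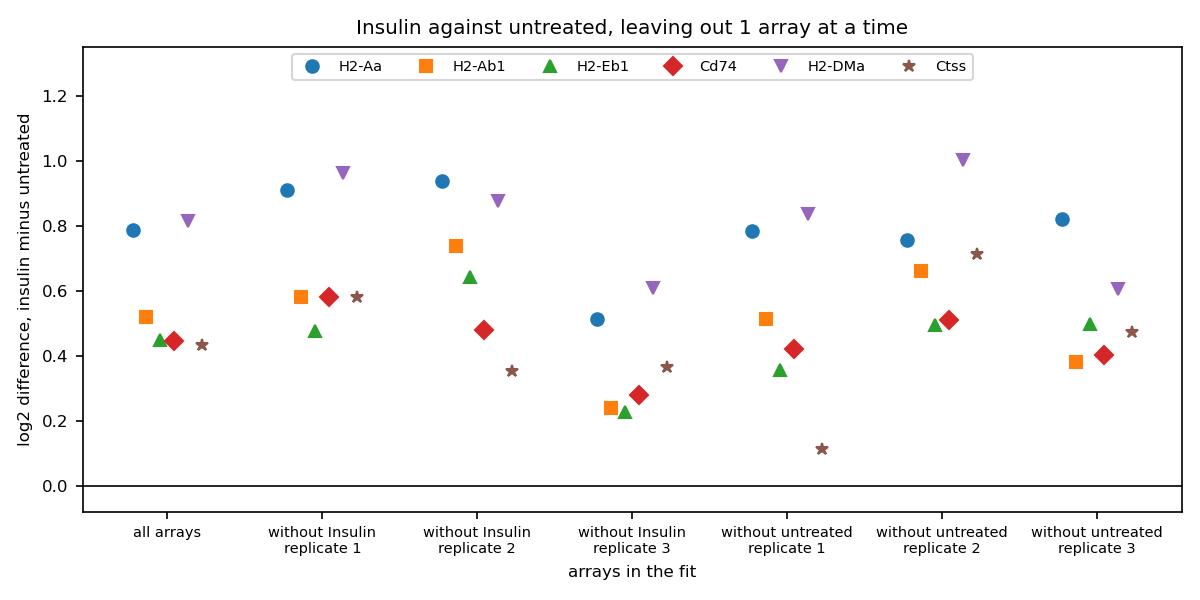
Log2 difference of Insulin from untreated livers (vertical axis) for 6 genes, with all arrays and with each Insulin or untreated array left out in turn (horizontal axis). H2-Aa, H2-Ab1, H2-Eb1 and Cd74 are lowest without Insulin replicate 3, Ctss is lowest at 0.11 without untreated replicate 1, and no point lies below 0.

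The second comparison asks what the partly biomineralized insulin did. At the brightest probe sets of the chains that make up the surface molecule, the BI livers stood close to the untreated livers. Ciita, at a dim probe set, had the highest positive difference among the brightest probe sets of the genes. Over the 9 genes 5 were higher and 4 lower, while 50.1% of all genes were higher. The median difference was 0.0010, against 0.00038 over all genes. The BI and Insulin comparisons use the same 3 untreated arrays.

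H2-Aa had signals of 10.58, 10.48 and 10.94 on the BI arrays, against 10.47, 10.41 and 10.54 on the untreated arrays, and the groups overlapped. The difference was 0.19 ± 0.26, with a 95% interval from -0.42 to 0.81. Its other probe sets differed by 0.03 ± 0.41 (1438858_x_at), -0.14 ± 0.30 (1452431_s_at) and 0.15 ± 0.45 (1443783_x_at). H2-Ab1 had signals of 8.23, 8.27 and 8.13 on the BI arrays, inside the untreated range, and a difference of -0.04 ± 0.28. Its dimmer probe sets differed by 0.08 ± 0.37 (1451721_a_at) and 0.64 ± 0.51 (1425477_x_at), with overlapping groups. H2-Eb1 had 8.89, 8.82 and 9.22 on the BI arrays, and its difference of 0.00 ± 0.25 had an interval from -0.58 to 0.58. Cd74 had 7.58, 7.99 and 8.07 on the BI arrays, which spread to both sides of the untreated arrays, and a difference of -0.02 ± 0.22. For these 4 genes the intervals reach at least 0.50 above 0 and at least 0.42 below it, so shifts of that size in the BI livers are not excluded.

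Ciita had signals of 5.87, 6.50 and 6.26 on the BI arrays, against 5.05, 5.18 and 6.18 on the untreated arrays. BI replicates 2 and 3 were above every untreated array and BI replicate 1 was not. The means were 6.21 ± 0.32 in BI livers and 5.47 ± 0.62 in untreated livers (SD, n = 3 each), a difference of 0.74 ± 0.37 with a 95% interval from -0.13 to 1.60 and an unadjusted limma p of 0.0835. Leaving out 1 array at a time gave 0.53 to 1.09. With values below 6 set to 6 the difference was 0.19, under that of H2-DMa (0.37). Its other probe sets differed by 1.13 ± 0.85 (1421211_a_at) and 0.63 ± 1.01 (1447075_at).

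The remaining genes did not separate. H2-DMa had signals of 7.19, 6.82 and 7.39 on the BI arrays, a difference of 0.37 ± 0.29 from the untreated arrays (0.16 without untreated replicate 3), and -0.09 ± 0.96 at its dimmer probe set. Ctss had 12.65, 11.88 and 11.79 on the BI arrays, a difference of 0.06 ± 0.37. H2-Oa had 2.16, 2.72 and 3.34 on the BI arrays, a difference of -0.84 ± 0.75 that was -0.04 without untreated replicate 3 and -1.57 without untreated replicate 2. H2-Ob had 4.09, 5.25 and 5.14, a difference of -0.02 ± 0.64. The probe sets shared by H2-DMb1 and H2-DMb2 differed by 0.05 ± 0.25 and 0.14 ± 0.34.

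With limma, 0 of 20 probe sets passed an adjusted p of 0.05 in the BI livers against the untreated ones, where 5 of all 45037 did (0.0111%). At an unadjusted p under 0.05 there were 0 of 20, against 4.48% of all. The BI arrays lay all above the untreated arrays at 0 of 20, against 4.94% of all, and all below at 0 of 20, against 4.26%.

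The third comparison sets the insulin forms against each other at one total concentration. At their brightest probe sets the surface chains and Cd74 had lower means in BI livers, with differences from -0.59 to -0.45. Again none passed the test. Over the 9 genes 7 were lower and 2 higher, while 45.7% of all genes were higher. The median difference was -0.45, against -0.03 over all genes. All 3 BI arrays lay below all 3 Insulin arrays at the brightest probe sets of H2-Aa, H2-Ab1 and Cd74 and at the dim one of H2-Oa. Of the other H2-Aa probe sets, 1438858_x_at separated too (-0.77 ± 0.41). The groups overlapped at 1452431_s_at (-0.52 ± 0.30) and 1443783_x_at (-0.75 ± 0.45). They also overlapped at the other H2-Ab1 probe sets, 1451721_a_at (-0.56 ± 0.37) and 1425477_x_at (-0.39 ± 0.51).

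H2-Aa averaged 10.67 ± 0.24 in BI livers and 11.26 ± 0.47 in Insulin livers (SD, n = 3 each). BI replicate 3, at 10.94, was just under Insulin replicate 2, at 10.96. The difference was -0.59 ± 0.26, with a 95% interval from -1.21 to 0.02 and an unadjusted limma p of 0.0569. H2-Ab1 averaged 8.21 ± 0.07 in BI livers and 8.77 ± 0.51 in Insulin livers, a difference of -0.56 ± 0.28. Cd74 averaged 7.88 ± 0.26 in BI livers and 8.35 ± 0.31 in Insulin livers, a difference of -0.47 ± 0.22 with an unadjusted limma p of 0.0707. BI replicate 3 lay just under Insulin replicate 1 for Cd74, so the groups separated by a small margin.

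H2-Eb1 differed by -0.45 ± 0.25, H2-DMa by -0.44 ± 0.29, Ctss by -0.37 ± 0.37 and H2-Oa by -1.29 ± 0.75 in BI against Insulin livers. Ciita had the opposite sign, with 6.21 ± 0.32 in BI livers and 5.79 ± 0.43 in Insulin livers, a difference of 0.42 ± 0.37 with overlapping groups. The dimmer H2-DMa probe set also had the opposite sign, 1.78 ± 0.96, with all BI arrays above all Insulin arrays. H2-Ob differed by 0.28 ± 0.64 and the shared H2-DMb1 probe sets by 0.15 ± 0.25 and -0.33 ± 0.34.

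With limma, 0 of 20 probe sets passed an adjusted p of 0.05 in BI against Insulin livers, as did 0% of all. At an unadjusted p under 0.05 there were 0 of 20, against 4.04% of all. The BI arrays lay all below the Insulin arrays at 5 of 20, against 5.00% of all, and all above at 1 of 20, against 4.60%. Without Insulin replicate 3 the BI minus Insulin difference was -0.32 for H2-Aa, -0.28 for H2-Ab1, -0.23 for H2-Eb1, -0.24 for H2-DMa and -0.30 for Cd74. A moderated F test over the 3 groups called 0% of all probe sets, and its unadjusted p for H2-Aa was 0.0449.

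**Figure D4:**
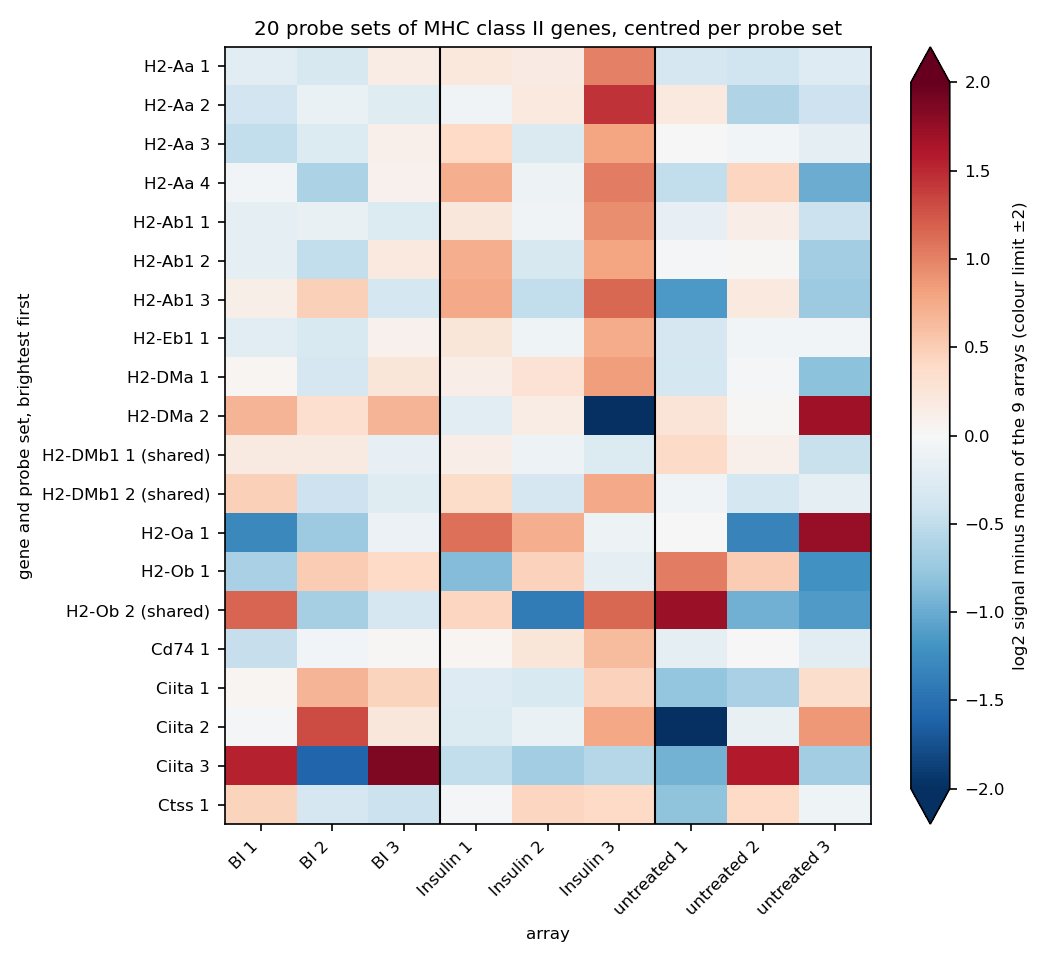
Log2 signal minus the mean of the 9 arrays (colour, limited to 2 either way) for the 20 probe sets (rows, the brightest of each gene first) on the BI, Insulin and untreated arrays (columns). The column of Insulin replicate 3 is raised through the H2-Aa, H2-Ab1, H2-Eb1 and Cd74 rows, while the dimmer H2-DMa probe set is at its lowest there, and the third Ciita probe set follows no other Ciita row.

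Whether probe sets of one gene told the same story was asked over the 9 arrays. There were 15 such pairs, of which 11 had a positive r, with a median r of 0.71. By exact permutation, r passed a Benjamini-Hochberg adjusted p of 0.05 in 8 pairs, of which 7 were positive and 1, of H2-DMa, was negative, and rho passed in 1. Without Insulin replicate 3 the median r was 0.40.

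The pair that held on every measure was Ciita 1421210_at with 1421211_a_at. Its Pearson r was 0.83 (exact permutation p 0.000168, adjusted 0.00252) and its Spearman rho 0.90 (exact permutation p 0.00203, adjusted 0.0304), and r was 0.89 without the 2 arrays farthest from the median. Both are annotated to the same source sequence, so their agreement may not be independent. The third Ciita probe set, annotated to another sequence, had r of -0.12 and -0.02 with these 2. The brightest 2 H2-Aa probe sets had r 0.85 (exact permutation p 0.0170, adjusted 0.0424) and rho 0.53 (exact permutation p 0.148, adjusted 0.277). Their r was 0.38 without the 2 farthest arrays, Insulin replicates 1 and 3, so the relation rested on those arrays.

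The brightest H2-Ab1 probe set had r 0.79 with the next (exact permutation p 0.00516, adjusted 0.0387) and rho 0.62 (exact permutation p 0.0857, adjusted 0.277), and r was 0.43 without the same arrays. The H2-DMa probe sets ran against each other, with r -0.80 (exact permutation p 0.0131, adjusted 0.0424) and rho -0.53 (exact permutation p 0.148, adjusted 0.277). Without Insulin replicate 3 and untreated replicate 3 that r was 0.0079, so it rested on those arrays. The shared H2-DMb1 probe sets had r -0.05 and the H2-Ob pair 0.03.

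Between genes, 45 pairs were compared and 0 passed after adjustment, by r or by rho, while 10 had an unadjusted exact permutation p under 0.05 for r. H2-Aa and H2-Eb1 stood at the top, with r 0.92 (exact permutation p 0.00343, adjusted 0.120), rho 0.70 (exact permutation p 0.0433, adjusted 0.389), r of 0.90 within groups and 0.59 without the 2 farthest arrays. The 6 pairs among H2-Aa, H2-Ab1, H2-Eb1 and Cd74 had r from 0.80 to 0.92. Without Insulin replicate 3 these were 0.23 to 0.73, so part of the relation came from that array. Ciita had r of 0.33 with H2-Aa, 0.03 with H2-Ab1, 0.29 with H2-Eb1 and 0.18 with Cd74.

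The rest of the class II pathway had median differences near 0 in all 3 comparisons. It held 22 genes, all measured: the X and Y box factors (Rfx5, Rfxap, Rfxank, Nfya, Nfyb, Nfyc, Creb1), lysosomal enzymes and their inhibitor Cst3, other H2 chains, the E3 ligases Marchf1 and Marchf8 that remove class II from the surface, and costimulatory molecules. In Insulin against untreated livers 9 were higher and 13 lower (median -0.05), and in BI against untreated 11 and 11 (median -0.0029). In BI against Insulin they were 11 and 11 (median -0.0011). Over all genes 53.7%, 50.1% and 45.7% were higher in the same comparisons, shares to set beside this list and those below. By limma 0 of 22 passed an adjusted p of 0.05 in each comparison, and at an unadjusted p under 0.05 there were 0, 0 and 1, against 3.87%, 3.90% and 3.44% of all genes. A count of 1 in 22 is near that share.

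That 1 gene was Marchf8, with 12.26, 12.19 and 11.97 on the BI arrays, against 11.79, 11.78 and 11.67 on the Insulin arrays. The groups did not overlap, and the difference was 0.39 ± 0.15 (unadjusted limma p 0.0382, adjusted 1.00). Against untreated livers Marchf8 differed by 0.21 ± 0.15 in BI livers and by -0.18 ± 0.15 in Insulin livers. Marchf1 differed by 0.44 ± 0.24 in Insulin against untreated livers and by -0.41 ± 0.24 in BI against Insulin livers. H2-Ea, the E alpha gene that pairs with H2-Eb1, was dim at 5.97, 4.29 and 4.42 on the BI arrays, 4.83, 3.81 and 5.20 on the Insulin arrays and 3.42, 4.10 and 3.76 on the untreated arrays. Its difference was 1.14 ± 0.54 in BI and 0.85 ± 0.54 in Insulin livers against untreated. Cd40, a costimulatory receptor, differed by -0.55 ± 0.40 in BI against untreated livers and by -0.71 ± 0.40 in BI against Insulin livers.

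Class I presentation, which displays peptides made inside the cell, was followed with 15 genes, all measured. In Insulin against untreated livers 10 were higher and 5 lower (median 0.05), in BI against untreated 8 and 7 (median 0.0047), and in BI against Insulin 6 and 9 (median -0.09). With limma 0 of 15 passed in each comparison, adjusted or at an unadjusted p under 0.05. The genes of smallest p in Insulin against untreated livers were the chaperone Canx (0.15 ± 0.14), the peptide trimmer Erap1 (0.16 ± 0.17) and the transporter Tap1 (0.33 ± 0.36). In BI against untreated livers they were the loading complex member Pdia3 (0.29 ± 0.14), Canx (0.24 ± 0.14) and the class I chain H2-K1 (-0.23 ± 0.16). In BI against Insulin livers they were Pdia3 (0.30 ± 0.14) and the immunoproteasome subunits Psmb9 (-0.39 ± 0.26) and Psmb8 (-0.37 ± 0.27).

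Interferon gamma is the classic inducer of Ciita, and 11 genes of its signalling were followed. In Insulin against untreated livers 7 were higher and 4 lower (median 0.45), in BI against untreated 4 and 7 (median -0.06), and in BI against Insulin 2 and 9 (median -0.20). By limma 0 of 11 passed an adjusted p of 0.05 in each, and at an unadjusted p under 0.05 there were 1, 0 and 1, against 3.87%, 3.90% and 3.44% of all genes. Gbp2, an interferon-induced GTPase, had 7.21, 7.44 and 7.10 on the Insulin arrays, against 6.74, 6.76 and 6.61 on the untreated arrays. The Insulin arrays were all higher, and the difference was 0.54 ± 0.21 (unadjusted limma p 0.0322, adjusted 1.00).

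Cxcl9, a chemokine induced by interferon gamma, had 9.02, 7.85 and 7.44 on the BI arrays, against 9.29, 9.59 and 9.07 on the Insulin arrays. The BI arrays were all lower, BI replicate 1 by little, and the difference was -1.21 ± 0.45 (unadjusted limma p 0.0283, adjusted 1.00). In Insulin against untreated livers Cxcl9 differed by 0.85 ± 0.45 and the receptor chain Ifngr2 by 0.51 ± 0.29. In BI against untreated livers Gbp2 differed by 0.34 ± 0.21, Irf8 by -0.36 ± 0.23 and the feedback inhibitor Socs1 by 1.06 ± 0.92. In BI against Insulin livers Cxcl10 differed by -0.51 ± 0.27 and Ifng itself by -1.64 ± 1.36. Ifng read 0.69 to 5.86, below every array median, and Socs1 was dim too, at a mean of 5.03. Their differences are little constrained.

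Markers of the cells that could carry these transcripts were read on the same arrays, and 0 were at a signal of 0 on any array. Dendritic cell markers (11 of 12 measured, Fscn1 at 9.17 the highest in mean) had a summed linear signal of 1003 to 1165 on the BI arrays, 1160 to 1333 on the Insulin arrays and 840 to 1536 on the untreated arrays. Kupffer cell and macrophage markers (12 of 12, Csf1r at 12.51) summed to 15928 to 30866, 18997 to 27695 and 15894 to 28208 on the BI, Insulin and untreated arrays. These ranges overlap between all 3 groups.

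B cell markers (9 of 10, Ighm at 8.76) summed to 654 to 841 on the BI, 882 to 956 on the Insulin and 740 to 902 on the untreated arrays. Sinusoidal endothelial markers (10 of 10, Clec4g at 11.80) summed to 6146 to 8452 on the BI, 8742 to 10700 on the Insulin and 6671 to 9537 on the untreated arrays. For both lists the BI sums were below the Insulin sums, while the centred list scores overlapped, at -0.81 to 0.12 on the BI and -0.40 to 0.27 on the Insulin arrays for B cells and at -0.37 to 0.0071 on the BI and -0.019 to 0.48 on the Insulin arrays for endothelium. Monocyte markers (7 of 8, Lyz2 at 11.01) summed to 3314 to 4396, 3952 to 6476 and 3521 to 4767, T cell markers (7 of 10, Cd8a at 6.24) to 221 to 385, 215 to 329 and 200 to 282, and hepatocyte markers (8 of 10, Fgb at 15.61) to 256399 to 285628, 257004 to 278471 and 251522 to 293489 on the BI, Insulin and untreated arrays.

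In BI against Insulin livers the lower class II means stood beside lower means of non-parenchymal markers. All 12 Kupffer cell and macrophage markers (median -0.29) and all 10 sinusoidal endothelial markers (median -0.38) had lower means in BI livers. So did 7 of 11 dendritic cell markers (median -0.26) and 6 of 9 B cell markers (median -0.52). Over all genes 45.7% were higher. Markers of one cell type can move together across arrays, so these counts are not separate observations. The Kupffer cell score ran from -0.63 to 0.40 on the BI arrays, and that of BI replicate 1 was the highest of the 9 arrays. With limma 0 of these markers passed, adjusted or at an unadjusted p under 0.05. In Insulin against untreated livers 8 of 11 dendritic cell markers (median 0.38), 9 of 12 Kupffer cell markers (median 0.22) and 9 of 10 endothelial markers (median 0.26) were higher. Over all genes 53.7% were. By limma 0 of these markers passed the adjusted p. Before adjustment 1, Ccr7 (1.86 ± 0.57, unadjusted limma p 0.0126), was under 0.05, against 3.87% of all genes. Ccr7 read 1.21 to 3.90, below every array median, where a log2 difference is little constrained. The part of these markers in the class II values was not tested.

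For the other lists and comparisons, Insulin against untreated livers had 4 of 9 B cell (median -0.12), 4 of 7 monocyte (0.20), 5 of 7 T cell (0.47) and 3 of 8 hepatocyte markers (-0.01) higher. BI against untreated livers had 6 of 11 dendritic cell (median 0.18), 5 of 12 Kupffer cell (-0.07), 2 of 9 B cell (-0.10), 2 of 10 endothelial (-0.19), 1 of 7 monocyte (-0.22), 4 of 7 T cell (0.26) and 4 of 8 hepatocyte markers (-0.0031) higher. BI against Insulin livers had 1 of 7 monocyte (median -0.59), 3 of 7 T cell (-0.15) and 5 of 8 hepatocyte markers (0.02) higher. Over all genes 53.7%, 50.1% and 45.7% were higher in these 3 comparisons. By limma 0 of these markers passed the adjusted p. Before adjustment 1 of 7 monocyte genes was under 0.05 in Insulin against untreated livers, against 3.87% of all genes. It was the chemokine receptor Ccr2 (-0.54 ± 0.19). In BI against Insulin livers 1 of 7 was, the lysozyme gene Lyz2 (-0.50 ± 0.19), against 3.44% of all genes. The other lists and comparisons named in this paragraph had 0 genes under 0.05. The hepatocyte medians lay closest to 0 in each comparison.

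**Figure D5:**
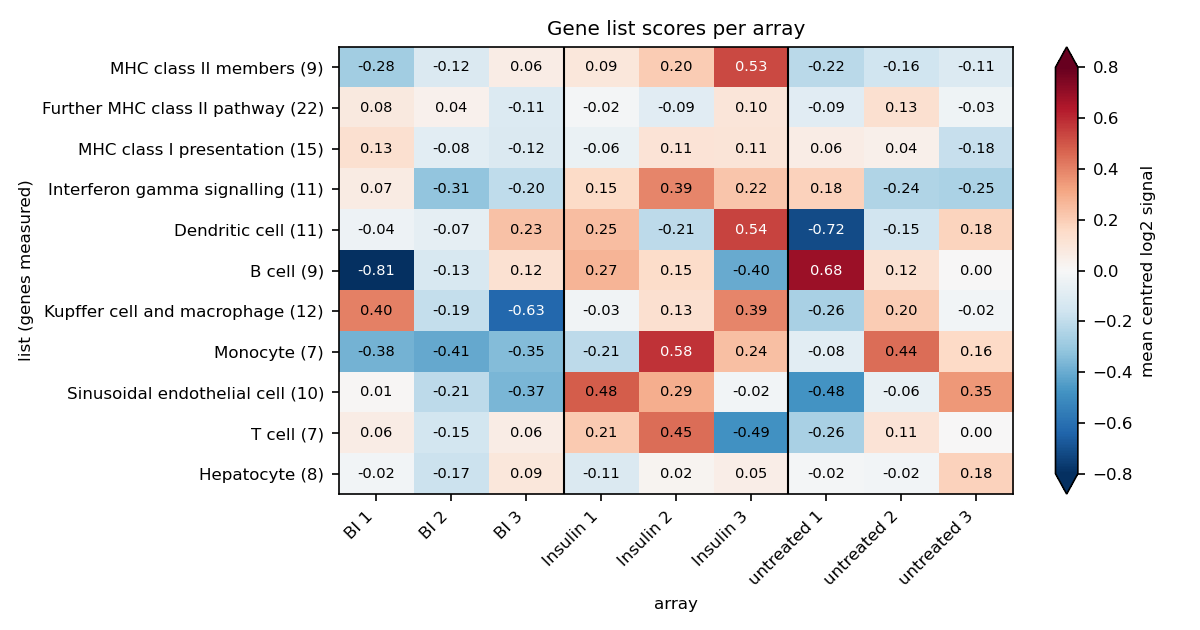
Mean log2 signal of each gene list after centring each gene on its 9-array mean (colour and printed value), for the BI, Insulin and untreated arrays (columns). Insulin replicate 3 has the highest class II value, 0.53, with a dendritic cell value of 0.54 and a Kupffer cell value of 0.39, and B cell and T cell values of -0.40 and -0.49. BI replicate 1 has the lowest class II value, -0.28, with a Kupffer cell value of 0.40.

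Across the 9 arrays, the 7 marker lists were set against H2-Aa, H2-Ab1, H2-Eb1 and Cd74 in 28 pairs, and 0 passed after adjustment while 1 had an unadjusted exact permutation p under 0.05 for r. That pair was the dendritic cell score with H2-Eb1, with r 0.81 (exact permutation p 0.0118, adjusted 0.331), rho 0.87 (exact permutation p 0.00451, adjusted 0.126), r of 0.85 within groups, and r of 0.67 without the 2 farthest arrays. The dendritic cell score had r of 0.69 with H2-Aa, 0.48 with H2-Ab1 and 0.48 with Cd74. Without Insulin replicate 3 these were 0.49, -0.02 and 0.09. On Insulin replicate 3, where the class II genes peaked, the dendritic and Kupffer cell scores were above 0 and those of B cells and T cells below 0. The Kupffer cell score was as high on BI replicate 1 (0.40), where the class II score was lowest (-0.28). On Insulin replicate 3 the brightest dendritic cell marker, Fscn1, was at 9.18, close to its mean of 9.17. The B cell score on that array went against its brightest marker, since Ighm was at its highest of the 9 arrays (9.32), while the dim Fcrla (2.43) was at its lowest.

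The genes most like the mean of H2-Aa, H2-Ab1, H2-Eb1 and Cd74 were sought over the 9 arrays among 11200 genes by Pearson r. The first 10 were Riok3, Mpv17, Actr8, Dll1, Prpf38b, Fam210b, Htr3a, Phf20, Klf2 and Mex3a, with r from 0.88 to 0.92. They are the highest of 11200 values of r over only 9 arrays, where a high r can arise without any relation. The list is a description and was not tested. The span from lowest to highest array ran from 0.15 log2 units for Riok3 to 1.75 for Klf2. Without Insulin replicate 3 the same 10 had r from 0.58 to 0.92.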

How the data were processed

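Liver RNA of 9 KKAy mouse samples was hybridised to one-colour Affymetrix arrays after TRIzol extraction, RNeasy columns and 3' IVT labelling, as the labels' protocols state. The authors deposited log2 signals for each probe set. The software behind background correction, summarization and scaling was not given in the sources used here. On each array the linear signal had a 2% trimmed mean of 500.004 and the lowest linear signal was 1, so no further normalization was applied and no detection call was used. Of 45101 probe sets, 64 controls were left out and 45037 tested. Gene symbols of the 2016 platform annotation were single for 34945 probe sets, several for 932 and missing for 9160, and 34741 were matched by gene ID to current names. The brightest probe set stood for a gene.

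All 9 arrays entered one limma fit (limma 3.58.1 in R 4.3.3, no trend) with group as the factor, which left 6 residual degrees of freedom. Tests were two-sided, and p was adjusted by Benjamini-Hochberg over 45037 probe sets and a threshold of 0.05. SE and 95% intervals come from that fit, and the number of arrays limits the precision. Correlations used exact permutation tests of the 9 arrays (Python 3.11.15, SciPy 1.17.1, NumPy 2.4.6, pandas 2.3.3). The fit was tested on simulated data. The members, gene lists, marker lists and tests were chosen with earlier results of these data known. Named are all members with their probe sets, the 3 genes of smallest p per pathway list and comparison, and the brightest marker of each cell type; other genes named were chosen after their values were seen. Alternatives tried were equal array medians, quantile normalization, a filter at the median level of 6.04, a floor at 6, trend and robust moderation, fits of only 2 groups, averaging a gene's probe sets, array weights, a replicate block and leaving out each array. Same-numbered arrays did not vary together (r -0.03 to 0.04 over 9 pairs), so the replicate numbers were not taken as pairs.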

Additional observations from a re-analysis of the deposited data

How the results depend on the processing

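Under the 18 alternative settings, 0 members passed the adjusted p in any of the 3 comparisons. Over 175 member values per comparison, the sign was that of the reported value in 170 for Insulin against untreated, 160 for BI against untreated and 173 for BI against Insulin. Part of this agreement was fixed in advance. The replicate block, trend and robust moderation, fits of only 2 groups and leaving out an array of the third group cannot change a difference. The members' median difference ranged from 0.28 to 0.58, from -0.05 to 0.16 and from -0.59 to -0.28 in these comparisons. Each shift from the reported median (0.45, 0.0010 and -0.45) was under 1 SD (0.22). That SD is the spread between arrays within groups, pooled over groups, of the members' median centred signal per array. Averaging a gene's probe sets turned H2-DMa to -0.53 in Insulin against untreated and to 0.67 in BI against Insulin livers, where its dimmer probe set enters, and H2-Ab1 to 0.22 in BI against untreated livers. A floor at 6 took Ciita to 0.19 in BI against untreated livers. Equal array medians put H2-Eb1 at -0.028 in BI against untreated livers. Leaving out 1 array at a time turned the sign of H2-DMb1 (-0.32 to 0.087), H2-Oa (-0.29 to 1.25) and H2-Ob (-0.95 to 0.16) in Insulin against untreated livers, and of H2-Ob in BI against Insulin livers (-0.057 to 0.65). In BI against untreated livers it turned H2-Ab1 (-0.18 to 0.10), H2-Eb1 (-0.12 to 0.081), H2-DMb1 (-0.18 to 0.23), H2-Ob (-0.67 to 0.44), Cd74 (-0.12 to 0.13) and Ctss (-0.26 to 0.34), and the cause was not tested. Over all probe sets, the 5 called in BI against untreated livers were 3 with averaged probe sets, 1 with dim probe sets left out, 0 with a floor at 6, 0 in a fit of only these 2 groups and 0 with a replicate block, and 0 to 2 with 1 array left out. In BI against Insulin livers the count of 0 was 1 with dim probe sets left out and 0 to 1 with 1 array left out. The replicate block left every member's difference as reported (H2-Aa 0.79 in Insulin against untreated livers), as it must in this balanced design. It left 0 members called. A floor at 6 gave no value for H2-Oa and H2-Ob, and the filter on dim probe sets gave none for the genes it removed. Without a detection call, differences of the dim H2-O, Ciita, Ccr7, Ifng and Socs1 probe sets are limited by signal over background. The same holds for the other dim dendritic cell, B cell and T cell markers.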
